A study of Mus musculus with 6 samples.

Results

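The co-inhibitory and co-stimulatory receptors of T cells were examined in mouse CD4+YFP+ cells, sorted as regulatory T cells (Treg). The set was a list of 8 genes: the CD28 family members Ctla4, Cd28, Icos and Pdcd1, and the checkpoint receptors Lag3, Tigit, Havcr2 and Klrg1. Every probe set annotated with 1 of these symbols alone was taken, which gave 9 probe sets for 7 genes out of 22626 probe sets tested. Cd28 and Icos had a brighter and a dimmer probe set each. Tigit had no probe set of its own in the annotation used and was not analysed here.

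A T cell needs a signal from its antigen receptor and a further signal from receptors such as CD28, which binds CD80 and CD86 on antigen-presenting cells. CTLA-4 binds the same ligands more tightly, removes them from those cells and is a main tool of Treg suppression. ICOS supports effector Treg, while PD-1, LAG-3, TIGIT and TIM-3 (the product of Havcr2) restrain activated T cells, and KLRG1 marks terminally differentiated effector cells, including a subset of Treg.

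RNA came from CD4+YFP+ cells of C57BL/6 background, and 100 ng of it per sample was amplified, labelled and hybridised to 1 array. There were 3 USP7-titled arrays and 3 control arrays with B6_WT titles. The controls carry Foxp3cre, a Cre recombinase expressed from the Foxp3 locus and so in Treg. The USP7-titled arrays carry Foxp3cre with a floxed allele, which the series text gives as Usp7 and the genotype field as HDAC11. That conflict was left as it stands, and the groups were taken from the titles. Age and sex are not given in the labels, which speak of independent samples but do not name the animals behind them, so the p-values cover the scatter among these 6 samples and no more.

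The arrays were checked against their labels. Usp7, whose product removes ubiquitin from other proteins, fell in USP7-titled arrays to 49.6% of control (log2 change -1.01, SE 0.07, limma adjusted p = 2.04e-06). Hdac11 was dim and fell by 0.58 (SE 0.16, limma adjusted p = 0.019). Foxp3 read 6.85, 7.29 and 6.87 in USP7-titled arrays, against 12.82, 13.13 and 12.99 in controls, a log2 change of -5.98 (SE 0.13, limma adjusted p = 1.62e-09). Its USP7-titled values lay under every array's median, and how far they were above background is not known. With Foxp3 this low, Treg names the sort here, and the receptor changes cannot be read as changes within Treg. Cd4 read 12.83 in USP7-titled arrays and 12.82 in controls, and Cd3d 12.92 and 12.99. The X-inactivation RNA Xist read 5.30 in USP7-titled arrays and 12.50 in controls, and the Y-linked Eif2s3y 10.15 and 4.50, so the effect of sex cannot be told apart from that of the group here. Array medians ran from 7.91 to 7.96 on the log2 scale. The Gapdh control probe sets, 3' minus 5', differed by 0.907 to 0.986 in USP7-titled arrays and by 0.989 to 1.233 in controls. These ranges did not overlap, and the part of RNA quality in the changes below was not tested.

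Changes are given below as log2 differences, USP7-titled minus control, tested with limma and adjusted by Benjamini-Hochberg over all probe sets, with a threshold of 0.05. Havcr2 and Icos rose, Ctla4 fell, and Cd28 fell by the brighter of its probe sets, while Pdcd1, Lag3 and Klrg1 did not pass. Havcr2 rose by 1.79, or 3.46-fold, whereas the changes of Icos, Ctla4 and Cd28 were 1.23-fold to 1.34-fold in size. Of the 9 receptor probe sets, 3 were higher and 2 were lower. Over all probe sets 33.3% passed, 16.2% higher and 17.1% lower. The groups did not overlap in 5 receptor probe sets, against 45.7% of all probe sets. With 9 probe sets, of which 4 share a gene with another, these counts do not set the receptors apart from other genes. The median change over the 7 genes was 0.07 by the brightest probe set, against -0.05 for all 12393 genes. The set thus had no common direction.

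**Figure D1:**
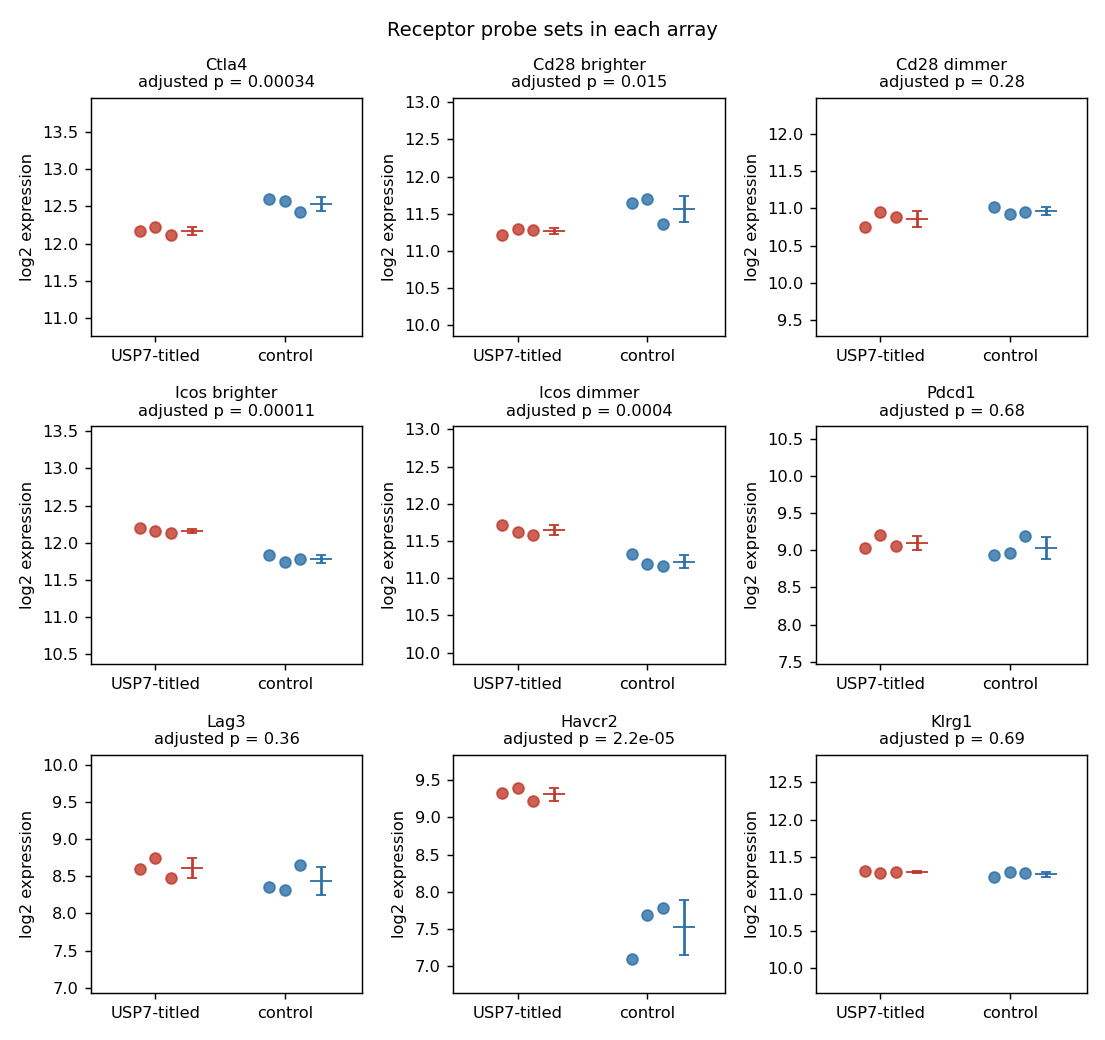
Log2 expression of each receptor probe set in the 3 USP7-titled arrays (red, left) and the 3 control arrays (blue, right), with the group mean and SD beside the points; every panel spans the same log2 range. The groups are apart for Ctla4, both Icos probe sets, Havcr2 and, narrowly, the brighter Cd28 probe set, and they overlap for Pdcd1, Lag3, Klrg1 and the dimmer Cd28 probe set.

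Ctla4, the high-affinity receptor for CD80 and CD86 and a gene that Foxp3 protein is known to bind, was among the brightest probe sets in both groups. It read 12.17, 12.23 and 12.11 in USP7-titled arrays, against 12.60, 12.57 and 12.43 in controls (probe set 1419334_at). Every USP7-titled array lay below every control array. The mean was 12.17 ± 0.06 in USP7-titled arrays and 12.53 ± 0.09 in controls (SD, n = 3 each), a change of -0.36 (SE 0.05, 95% interval -0.48 to -0.25, limma adjusted p = 0.000339) that left 77.8% of the control level. Leaving out each array in turn gave changes of -0.41 to -0.33, all past the threshold. When arrays were centred on the hybridization spikes, control RNAs that do not measure RNA input, the change was -0.20 (limma adjusted p = 0.0271). In controls it was brighter than 98.1% of all probe sets. In bulk RNA such as this, fewer cells that express a gene and less RNA per cell cannot be told apart.

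Cd28, the receptor that gives the classical co-stimulatory signal, fell less clearly. Its brighter probe set (1417597_at) read 11.22, 11.29 and 11.28 in USP7-titled arrays, against 11.64, 11.69 and 11.36 in controls. The groups did not overlap, but control 3 lay close to the USP7-titled arrays. The mean was 11.26 ± 0.04 in USP7-titled arrays and 11.56 ± 0.18 in controls (SD, n = 3 each), a change of -0.30 (SE 0.08, limma adjusted p = 0.0153). This call was lost without control 1 (-0.26, limma adjusted p = 0.0679), without control 2 (-0.24, limma adjusted p = 0.0691), without a variance trend (limma adjusted p = 0.0723) and under spike centring (-0.14, limma adjusted p = 0.247). Its dimmer probe set (1437025_at) read 10.75, 10.95 and 10.88 in USP7-titled arrays, against 11.03, 10.93 and 10.95 in controls. These groups overlapped, and the change of -0.11 (95% interval -0.26 to 0.05) did not pass (limma adjusted p = 0.277). A fall of Cd28 past the threshold thus rests on 1 of its 2 probe sets.

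Icos, the inducible co-stimulator that binds ICOS ligand, rose by both of its probe sets. The brighter (1421930_at) read 12.19, 12.15 and 12.13 in USP7-titled arrays, against 11.84, 11.74 and 11.78 in controls. The dimmer (1421931_at) read 11.72, 11.63 and 11.58 in USP7-titled arrays, against 11.32, 11.19 and 11.16 in controls. In each the lowest USP7-titled array was above the highest control array. The brighter rose by 0.37 (SE 0.04, 95% interval 0.28 to 0.47, limma adjusted p = 0.000105), or 1.30-fold, and the dimmer by 0.42 (SE 0.06, limma adjusted p = 0.000402), or 1.34-fold. Leaving out each array gave rises of 0.35 to 0.40 for the brighter and 0.38 to 0.47 for the dimmer.

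Pdcd1, which encodes the inhibitory receptor PD-1, did not pass. It read 9.04, 9.20 and 9.06 in USP7-titled arrays, against 8.93, 8.96 and 9.20 in controls (1449835_at). The groups overlapped, with control 3 level with the highest USP7-titled array. The change was 0.07 (SE 0.11, limma adjusted p = 0.677), with a 95% interval of -0.17 to 0.31.

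Cd28, Ctla4 and Icos lie next to each other on chromosome 1, with no other protein-coding gene between them in the RefSeq annotation, and Pdcd1 lies elsewhere on that chromosome. The 3 neighbours were compared within each array by the difference between their brightest probe sets, which shows unequal change and not which level is higher. Ctla4 minus Icos was -0.03, 0.08 and -0.02 in USP7-titled arrays, against 0.76, 0.83 and 0.65 in controls, a shift of -0.74. Icos minus Cd28 was 0.97, 0.86 and 0.85 in USP7-titled arrays, against 0.20, 0.04 and 0.42 in controls, a shift of 0.68. Both shifts had an exact permutation p of 0.1 (two-sided), the smallest that 3 against 3 arrays allow, and 0.15 after adjustment over the 3 pairs. By their brightest probe sets Icos rose and both neighbours fell, each without overlap between the groups. The lack of overlap in both differences, and so the exact permutation p of 0.1, follows from this and is no further support. Nor can this design bring such a test under 0.05. Ctla4 minus Cd28 was 0.95, 0.94 and 0.83 in USP7-titled arrays, against 0.96, 0.87 and 1.07 in controls, with overlapping groups and a shift of -0.06 (exact permutation p = 0.4). Leaving out 1 array moved that shift to between -0.11 (without control 2) and -0.01 (without control 3), with -0.03 without USP7-titled 3. The next measured protein-coding gene on the Icos side, Pard3b, chosen after its value was seen, was at -0.12 (SE 0.13, limma adjusted p = 0.532).

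Havcr2, which encodes TIM-3, a receptor of galectin-9 found on activated T cells and also on macrophages and dendritic cells, had the widest separation of the 9 receptor probe sets. It read 9.33, 9.39 and 9.22 in USP7-titled arrays, against 7.09, 7.69 and 7.78 in controls (1451584_at). The lowest USP7-titled array was more than 1 log2 unit above the highest control array, and the controls were the more spread. The mean was 9.31 ± 0.09 in USP7-titled arrays and 7.52 ± 0.38 in controls (SD, n = 3 each), a rise of 1.79 (SE 0.17, 95% interval 1.41 to 2.17, limma adjusted p = 2.17e-05). Leaving out each array gave rises of 1.58 to 1.92, the lowest without control 1. In controls it was brighter than only 43.8% of all probe sets, a range in which background signal can affect fold changes, which was not tested.

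Lag3, an inhibitory receptor of MHC class II, did not pass. It read 8.60, 8.75 and 8.48 in USP7-titled arrays, against 8.35, 8.31 and 8.66 in controls (1449911_at). Control 3 lay among the USP7-titled arrays. The change was 0.17 (SE 0.13, 95% interval -0.12 to 0.46, limma adjusted p = 0.365). Klrg1, a lectin-like inhibitory receptor of cadherins, was bright and nearly level. It read 11.31, 11.28 and 11.30 in USP7-titled arrays, against 11.22, 11.29 and 11.28 in controls (1420788_at). The change was 0.03 (SE 0.05, limma adjusted p = 0.694). On the deposited scaling its 95% interval of -0.08 to 0.15 leaves out changes of the size seen for Ctla4 and Icos. Under spike centring Pdcd1, Lag3 and Klrg1 were at 0.23, 0.33 and 0.19 and still did not pass (limma adjusted p = 0.228, 0.12 and 0.0844). Ctla4 was at -0.20 under that scaling, a change of like size to that of Klrg1.

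**Figure D2:**
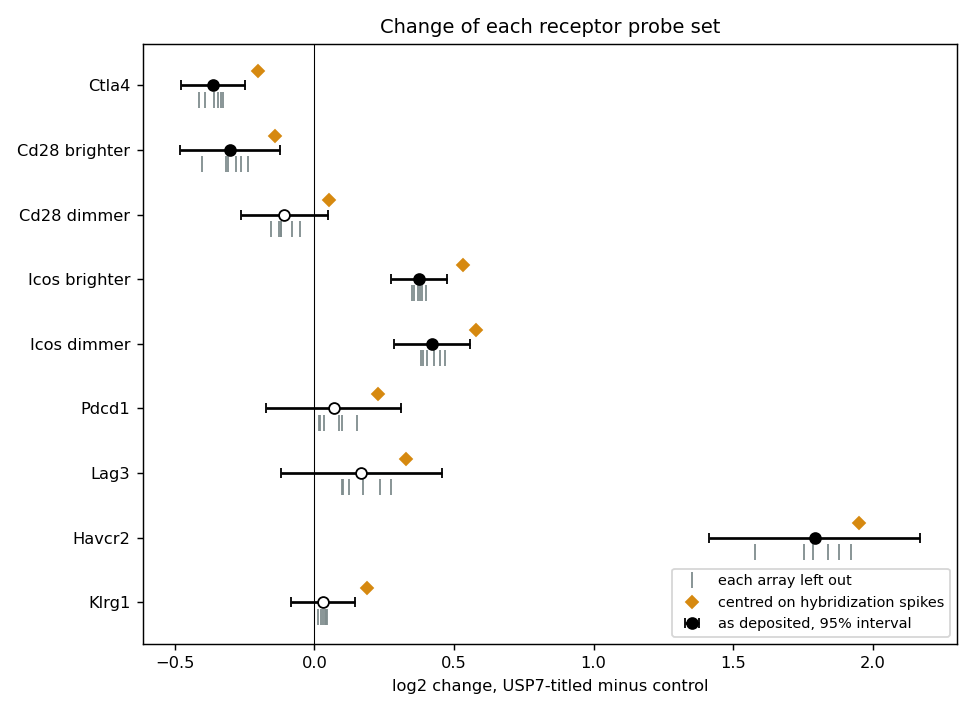
Log2 change of each receptor probe set, USP7-titled minus control, with its 95% interval (circles, filled where the limma adjusted p was under 0.05), the changes with each array left out (grey ticks) and the change after centring on hybridization spikes (orange diamonds). Havcr2 at 1.79 stands apart from the others, which lie between -0.36 and 0.42, and spike centring moves all probe sets upward by the same amount.

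Promoter sequences are shown for the receptors with the largest fall and the largest rise, Ctla4 and Havcr2, because their transcripts moved in opposite directions in the same arrays. RefSeq promoter entries (GRCm38.p6) matched 4 of the 8 receptors. The 250 bases before each gene's start are printed 5′ to 3′ on the gene's strand, with capitals marking matches on either strand to 4 short motifs: forkhead (GTAAACA), AP-1 (TGANTCA), T-box (GGTGTGA) and NFAT (GGAAA).
Ctla4, chr1:60908775-60909024, + strand: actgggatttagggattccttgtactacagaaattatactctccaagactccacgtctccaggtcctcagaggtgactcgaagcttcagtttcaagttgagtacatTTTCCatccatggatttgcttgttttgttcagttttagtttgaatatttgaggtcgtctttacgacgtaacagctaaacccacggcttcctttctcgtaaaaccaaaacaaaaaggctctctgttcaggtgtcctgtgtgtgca
Havcr2, chr11:46454681-46454930, + strand: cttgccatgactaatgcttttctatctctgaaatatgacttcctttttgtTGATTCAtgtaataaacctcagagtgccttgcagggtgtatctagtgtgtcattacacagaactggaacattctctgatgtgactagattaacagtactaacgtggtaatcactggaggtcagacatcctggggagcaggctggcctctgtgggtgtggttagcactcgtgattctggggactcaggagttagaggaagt
The Ctla4 window held 1 NFAT match, a motif present in 55.6% of 32851 promoter windows of this length. The Havcr2 window held 1 AP-1 match, a motif present in 6.7% of them. Neither held the forkhead or the T-box letters, which 3.2% and 3.3% of windows held. A match in these letters is not a measured binding site.

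Genes for the receptors' partners were read from lists, by the brightest probe set of each gene. Over all genes 32.4% passed, 16.9% higher and 15.6% lower. Of 15 measured ligand genes, 3 rose and 3 fell past the threshold, and 9 did neither (median change -0.08). The ligands of CD28 and CTLA-4 went opposite ways. Cd80 read 9.31, 8.81 and 9.57 in USP7-titled arrays, against 7.93, 7.95 and 7.84 in controls, a rise of 1.32 (SE 0.17, limma adjusted p = 0.000189), and its other 3 probe sets rose by 0.60 to 1.90. Cd86 read 7.69, 7.93 and 7.71 in USP7-titled arrays, against 9.09, 8.56 and 8.39 in controls, a change of -0.90 (SE 0.17, limma adjusted p = 0.00225), and its other probe set fell by 0.74. In neither gene did the groups overlap.

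Icosl, the ligand of ICOS, read 7.17, 7.89 and 8.43 in USP7-titled arrays, against 8.98, 8.81 and 9.16 in controls. It changed by -1.15 (SE 0.25, limma adjusted p = 0.00516), opposite to its receptor, while a dimmer probe set at -0.36 did not pass (limma adjusted p = 0.0548). Lgals3, which encodes galectin-3, a known partner of LAG-3, rose by 3.50 (limma adjusted p = 2.07e-09). Of ligands named after their values were seen, Cd274, the PD-1 ligand known as PD-L1, fell by 0.46 (limma adjusted p = 0.00396) and Lgals9, the galectin that binds TIM-3, rose by 0.24 (limma adjusted p = 0.023). Cd274 lost its call under spike centring (-0.30, limma adjusted p = 0.0764). Lgals9 lost its call in 6 settings, among them quantile normalization (0.17, limma adjusted p = 0.0975) and the omission of USP7-titled 1, USP7-titled 2, control 1 or control 3 (0.20 to 0.23). Several ligands are mainly known from antigen-presenting cells, whose markers are given below.

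Of 10 other inhibitory receptors measured, 2 rose and 3 fell past the threshold, and 5 did neither (median 0.02). Cd96, a receptor of the TIGIT ligand CD155, fell by 1.08 (SE 0.11, limma adjusted p = 2.58e-05), reading 10.32, 10.74 and 10.58 in USP7-titled arrays, against 11.62, 11.48 and 11.77 in controls. Lair1, a collagen receptor, rose by 1.07 and Cd300a, which binds phospholipids, by 0.93, both also known from myeloid cells. Cd200r1, the receptor of CD200, fell by 0.36 with a limma adjusted p of 0.0451, and lost its call in 8 settings, among them the omission of either of USP7-titled 2 and 3 or of control 1 and 2, and spike centring (-0.20). Without control 3 Cd300a lost its call (0.76, limma adjusted p = 0.0552) and 1 inhibitory receptor rose. Of 21 other co-stimulatory receptors, 2 rose and 7 fell past the threshold, and 12 did neither (median -0.06). Tnfrsf25, known as DR3, fell by 0.80, Cd84 by 0.50 and the CD70 receptor Cd27 by 0.41, and Slamf7 rose by 0.50, a call lost without USP7-titled 2 (0.36), control 2 (0.52) or control 3 (0.39). The co-stimulatory count of falls was 4 without USP7-titled 3, without control 1 or without control 2, and 3 under spike centring. Its count of rises was 1 without USP7-titled 2, without control 2 or without control 3, and 4 under spike centring.

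Signalling genes beneath these receptors went both ways, with 6 of 24 higher, 7 lower and 11 not passing (median -0.02). The adaptor Grb2, which binds the tail of CD28, rose by 0.97 (limma adjusted p = 0.000504). The kinase Akt1 rose by 0.53 by its brighter probe set, while its other probe set was at 0.30. Dgka, a diacylglycerol kinase that dampens T cell activation, fell by 0.49, and Tbk1, a kinase that associates with ICOS, by 0.46. Under spike centring 2 signalling genes fell. In the traffic and turnover list 7 of 20 rose, 2 fell and 11 did not pass (median 0.08). Ap2s1 and Ap1s1, small subunits of the adaptor complexes that carry receptors such as CTLA-4 into vesicles, rose by 0.69 and 0.64. Lrba, which protects CTLA-4 from degradation in lysosomes, rose by 0.44, but its other probe sets were at 0.59 and -0.74, both past the threshold, and their mean was at 0.10 (limma adjusted p = 0.477). The ubiquitin ligase gene Cbl fell by 0.48. The traffic count of rises was 3 without USP7-titled 3 or without control 1, 4 without control 2, and 3 with quantile normalization or with averaged probe sets. Its count of falls was 1 when any 1 of the USP7-titled arrays, control 1 or control 2 was left out.

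Of 30 transcription factor genes linked to these receptors, 8 rose and 13 fell past the threshold, and 9 did neither (median -0.21). Beside Foxp3, Jun, a subunit of AP-1, fell by 1.69 (limma adjusted p = 1.69e-06). Tbx21, the T-box factor T-bet known to act on Havcr2 in helper T cells, rose by 1.40, reading 10.03, 10.07 and 10.11 in USP7-titled arrays, against 8.82, 8.45 and 8.75 in controls. Id2 rose by 1.24, with other probe sets at 1.26 and -0.10. Under spike centring 10 rose and 9 fell.

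**Figure D3:**
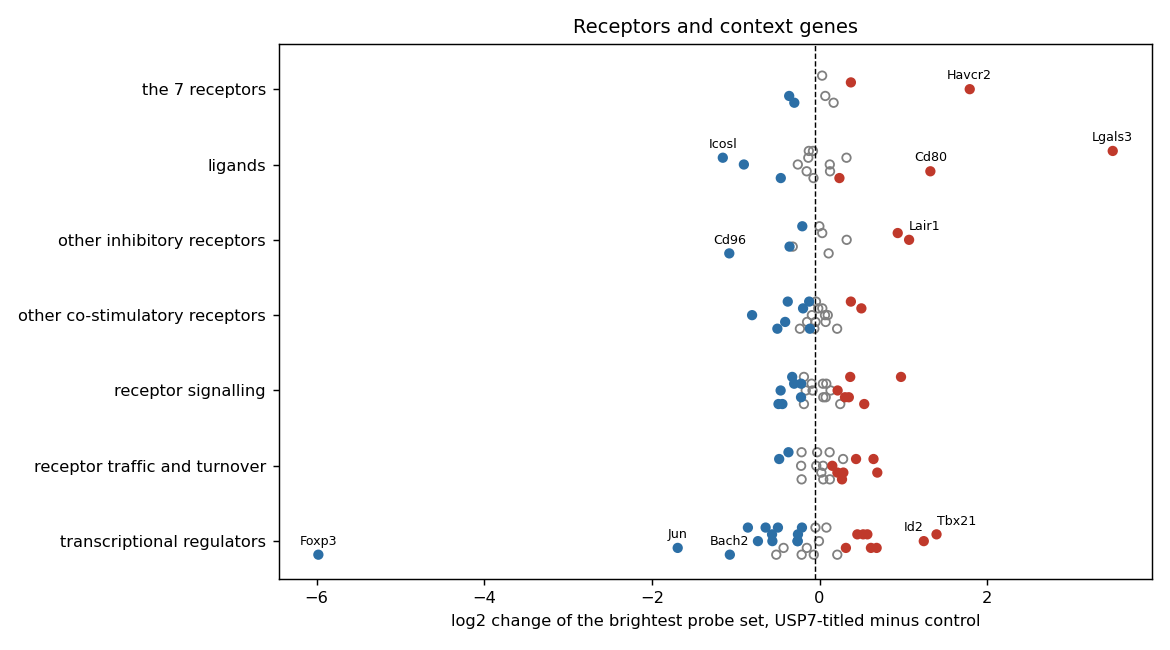
Log2 change of the brightest probe set of each gene, USP7-titled minus control, for the 7 measured receptors and 6 lists of partner genes; red and blue points rose or fell past the threshold, open points did not pass, and the dashed line is the median of all genes at -0.05. Every list holds rises and falls, and genes that moved by more than 1 log2 unit are labelled.

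Markers of other cells that a sort can hold differed between the same arrays. Of 27 myeloid markers 14 rose, 1 fell and 12 did not pass, and their summed linear signal was 10887 to 12423 in USP7-titled arrays, against 8107 to 8831 in controls. C1qb, a complement gene of macrophages, rose by 2.86, Lyz1 by 2.48, C1qc by 2.48 and S100a8 by 2.07, while Ctss, the brightest member, fell by 0.48 and Tyrobp, an adaptor, rose by 1.85. In all, 11 of the 27 lay above the median gene in USP7-titled arrays and 2 in controls. Of defining markers named after their values were seen, Csf1r read 9.55 in USP7-titled arrays and 7.57 in controls, Itgam 6.20 and 6.33, and Cd14 5.58 and 5.48. An array gives no true zero, so absence cannot be read from these levels. Havcr2, Lair1, Cd300a and Cd80 are also known from myeloid cells, and the part of these markers in their rises was not tested.

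Of 16 CD8 T and NK cell markers 6 rose and 1 fell, and 9 did neither. Their summed signal was 22812 to 23304 in USP7-titled arrays, against 12047 to 12351 in controls. Bright members weigh most in this linear sum, among them Gzmb, at 12.64 in USP7-titled arrays and 9.35 in controls, and Nkg7, at 12.24 and 9.47. Gzmb, Gzma, Nkg7 and Ccl5, genes of cytotoxic cells, rose by 3.29, 3.21, 2.76 and 1.31, and Il2rb, the brightest, was at -0.09. The member that fell, named after its value was seen, was Prf1, which encodes perforin, the pore-forming protein of cytotoxic cells (-0.45, limma adjusted p = 0.00255). Its dimmer probe set was at -0.25 and did not pass, nor did the mean of both (-0.35, limma adjusted p = 0.0836). Cd8a, also named after its value was seen, read 8.66 in USP7-titled arrays and 8.65 in controls, and the NK receptor Ncr1 3.84 and 3.99. Cd8b1, Klrk1, Klrd1, Klra1 and Klra8, likewise named afterwards, were at -0.23, -0.26, 0.19, -0.02 and 0.26 and did not pass. Without control 1, 2 of these markers fell, and with averaged probe sets 0 did. Klrg1, itself known from NK and CD8 T cells, was at 0.03 in the same arrays. Of 15 B cell markers 6 rose and 1 fell, with a summed signal of 5115 to 6048 in USP7-titled arrays, against 4258 to 4395 in controls. They were led by Ly86 (1.20), Ms4a1 (0.998), Pou2af1 (0.91) and H2-Eb1 (0.91), and their brightest members Cd74 and H2-Aa rose by 0.28 and 0.82. Of members named after their values were seen, the complement receptor Cr2 was the one that fell (-0.59, limma adjusted p = 0.00524), and Fcer2a, which encodes CD23, the antigen receptor subunit Cd79a, the B cell factor Pax5 and the kinase Blk were at -0.38, -0.29, -0.29 and -0.28 and did not pass. The call of Ms4a1 was lost without USP7-titled 2 (0.69, limma adjusted p = 0.0732), without control 1 (0.69, limma adjusted p = 0.0931) and without a variance trend (limma adjusted p = 0.0578), and that of Cd74 without USP7-titled 2 (0.22, limma adjusted p = 0.0503). Without USP7-titled 1 or USP7-titled 3, 2 B cell markers fell.

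Of 12 Treg and T cell markers 8 fell and 4 did not pass. Their summed signal was 50032 to 50739 in USP7-titled arrays, against 63993 to 65724 in controls. Foxp3, among the brightest members in controls (12.98) and changed by -5.98, weighs most in the drop of this linear sum. Besides Foxp3 the falls were led by Nrp1 (-1.11), Itgae (-0.83) and Ptprc (-0.44). The remaining falls, named after their values were seen, were small: Ikzf2 (-0.21), Il2ra (-0.17), Tnfrsf18 (-0.12) and Cd3e (-0.11). Il2ra stayed bright, at 12.68 in USP7-titled arrays and 12.85 in controls. The count of falls was 5 without USP7-titled 2, USP7-titled 3 or control 2, and under spike centring 4 fell and 1 rose. All 9 measured mitosis genes rose, with a median of 3.09, led by Bub1 (3.71), Birc5 (3.70), Ube2c (3.46) and Ccna2 (3.29). The part of any of these lists in the receptor changes was not tested.

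**Figure D4:**
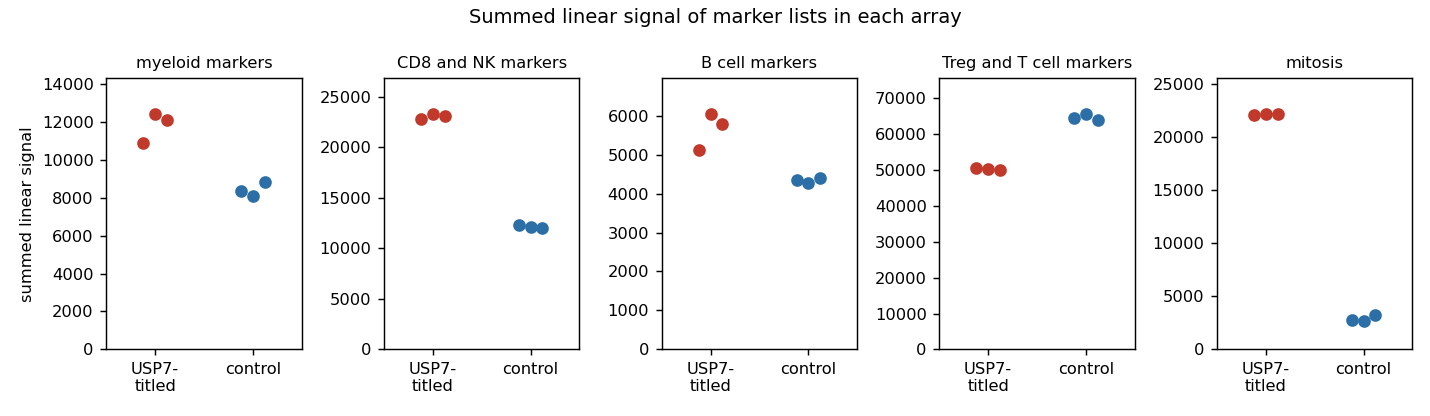
Summed linear signal of 4 lists of cell type markers and of mitosis genes in each of the 3 USP7-titled arrays (red, left) and 3 control arrays (blue, right), with each axis starting at 0. The groups do not overlap in any of these 5 sums: the Treg and T cell sum is lower in USP7-titled arrays and the other sums are higher.

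Genes whose values ran closest to the largest rise and the largest fall were found by the root mean square difference of centred log2 values over 6 arrays, among 6196 genes brighter than the median gene. Neither receptor overlapped between the groups, so a gene comes near to it by a group difference of like size. For Havcr2 the nearest were Ccne1, which encodes cyclin E1 (0.138, change 1.56), the lysosomal thiol reductase Ifi30 (0.159, change 1.61) and the kinase Sgk1 (0.162, change 1.72). Each of these genes, like Havcr2, was lowest in control 1, which their choice by nearness over these same arrays favours. Ccne1 read 7.99 there, against 8.40 and 8.46 in the other controls. Ifi30 read 9.28, against 9.58 and 9.67, and Sgk1 7.94, against 8.10 and 8.35. For Ctla4 the nearest were Washc4, a subunit of the WASH complex of endosomes (0.0258, change -0.34), Ms4a6b (0.0318, change -0.36) and Hp1bp3, a heterochromatin-binding protein (0.0346, change -0.35).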

How the data were processed

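Expression was measured with 1 array per sample, 3 USP7-titled and 3 control. The authors deposited log2 expression values, and nothing states the base of the logarithm, which was inferred from their range of 2.21 to 14.47. Biotin-labelled RNA was made from total RNA with an amplification kit, per the labels' protocols. How probe sets were summarised and normalized is not given in the sources used here. No further normalization was applied.

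Of 22690 probe sets, 64 array controls were left out. The platform annotation gave 20380 a single symbol, which named 12393 genes; 691 had several symbols and 1555 none. A gene in a list was represented by its brightest probe set over the 6 arrays. The comparison used limma 3.58.1 (lmFit, then eBayes with trend) under R 4.3.3. Its two-sided p-values were adjusted by Benjamini-Hochberg across 22626 probe sets. The number of arrays limits the precision.

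All receptor probe sets are named. From each list the 4 genes past the threshold with the largest change are named (the 2 with the lowest p if none passed), as are the 2 brightest of each marker list. Members, lists and tests were chosen with earlier results of these data known. Alternatives were other scalings, a filter on dim probe sets, other summaries per gene, other variance models, array weights, a replicate block, other thresholds and each array left out. Protein sequences were not used here.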

Additional observations from a re-analysis of the deposited data

How the results depend on the processing

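Ctla4, both Icos probe sets and Havcr2 kept their direction and stayed past the threshold in every alternative run, and Pdcd1, Lag3 and Klrg1 stayed short of it. The count of lower receptor probe sets, 2 as reported, was 1 under spike centring, without a variance trend and at an adjusted p of 0.01, and 1 to 2 with an array left out, since the brighter Cd28 probe set lost its call there. Signs of uncalled values turned for the dimmer Cd28 probe set under spike centring (0.051) and for Klrg1 with quantile normalization (-0.032). With averaged probe sets the shift of Ctla4 minus Cd28 was -0.16 (exact permutation p = 0.1, the smallest possible), against -0.06 (exact permutation p = 0.4). The likeness of these changes thus depends on the Cd28 probe set used. Over all probe sets 3673 were higher and 3865 lower, 48.7% of calls higher. Spike centring gave 5157 higher and 1938 lower (72.7% higher) and moved the median change of all probe sets to 0.10, against -0.06. With 1 value per gene the counts were 2102 higher and 1976 lower by the brightest probe set, and 2076 and 2202 by the mean. At an adjusted p of 0.01, 2350 were lower. The deviations of same-numbered arrays correlated at 0.07, -0.05 and 0.09, which gives no sign of pairing by replicate number but cannot exclude it. With the replicate number as a block, 3637 probe sets were higher and 3858 lower, and the receptor counts were 3 and 2; under that block 2 CD8 and NK markers fell. With averaged probe sets 4 traffic genes fell. Under spike centring 1 traffic gene and 1 inhibitory receptor fell. The cause of these shifts was not tested. No detection calls were used, so how far Havcr2 lay above background in controls is not known.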
